A study of Mus musculus with 2 samples.

Results

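The 9 genes described here encode inhibitors of NF-kB signalling and their adaptors, IkB proteins, NF-kB subunits and a ubiquitin ligase of the TNF receptor complex. The genes are Tnip3, Tnip1, Tnfaip3, Nfkbia, Nfkbiz, Nfkb1, Nfkb2, Relb and Birc3. They were taken by symbol from the gene tables of both libraries, and each symbol matched 1 gene, 9 of 31053 genes in all. The set was chosen by one measured value, a lower level of Tnip3 in cycling epithelium of the library labelled KO, which was known from an earlier look at these data. That contrast is therefore given as a description and supports nothing here. The questions were whether Tnip3 was also lower in transitional alveolar cells and whether the other 8 genes shared the difference.

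NF-kB is a family of transcription factors that wait in the cytoplasm, held there by IkB proteins, until ligands such as TNF, IL-1 or bacterial products set off a kinase that marks IkB for destruction. Freed NF-kB then switches on inflammatory genes and, with them, its own brakes: new IkB protein, the ubiquitin-editing enzyme encoded by Tnfaip3, and the TNIP adaptors that bring this enzyme to its substrates. In lung, type 2 alveolar (AT2) cells make surfactant and act as progenitors, and after bleomycin injury some pass through a keratin 8-high transitional state on the way to flat type 1 (AT1) cells, a period in which inflammatory signals reach them.

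The study compared 2 groups of mice, Pclaf WT and Pclaf KO, aged 8 to 10 weeks, both given bleomycin at 1.35 U per kg 1 week before the lungs were taken. Pclaf encodes a PCNA-associated protein of dividing cells, and the KO mice came from a line established earlier. The part of the gene deleted in it is not given in the sources used here. Lung cells were sorted as Epcam+, Cd31- and Cd45-, and 1 droplet library was made per genotype with a kit that reads the 3′ end of transcripts. How many mice went into a library is not given in the sources used here, so that genotype, library and animals cannot be told apart and no p-value can be had. Levels below are unique molecular identifier (UMI) counts per 1000000 UMIs of a cell type (CPM). Intervals are exact 95% intervals of counts or shares and cover counting error only.

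The libraries differed before any gene of the set was considered. The library labelled WT held 30669 barcodes with a median of 2105 UMIs and the library labelled KO 17172 with a median of 5682, against about 16000 cells loaded per group by the labels. Filters on genes and mitochondrial UMIs kept 30187 and 15637 cells. Despite the sort, epithelial types made up 6.35% of the kept cells of the library labelled WT and 70.0% of those of the library labelled KO. The 2 libraries shared 163 barcode sequences. Female Xist and 4 Y-linked genes were both present in each library (254 and 183 CPM in that labelled WT, 498 and 68.6 CPM in that labelled KO), although the methods name male mice. Pclaf itself was not lower in cycling epithelium of the library labelled KO, with 145 CPM (174 UMIs) against 106 CPM (17 UMIs) in that labelled WT, a log2 difference of 0.45 (-0.27 to 1.27). It was lower in AT2 cells, at 7.83 CPM in the library labelled WT and 2.52 CPM in that labelled KO (-1.64, interval -2.17 to -1.07), and in transitional cells, from 8 UMIs each, at 9.19 and 1.93 CPM (-2.25, interval -3.86 to -0.64). In cycling cells of other lineages Pclaf stood at 517 and 211 CPM, and over all kept cells at 39.3 and 5.19 CPM. Where the counted 3′ end lies relative to the deletion was not tested, so this does not check the genotype, and directions below are between the 2 libraries as labelled.

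Cell types were gated on marker panels that hold none of the 9 genes, each cell being scored from 0 to 1 on each panel. This gave 22 types, of which 18 had at least 20 cells in both libraries. Cycling epithelium numbered 26 cells in the library labelled WT and 119 in that labelled KO, transitional cells 177 and 708, and AT2 cells 890 and 7506. The median cell of these types scored as its name says: AT2 cells had a median AT2 score of 0.714 and 0.749, and transitional cells a median transitional score of 0.376 and 0.381. Cycling epithelium leaned to AT2, with median AT2 scores of 0.537 and 0.640 against transitional scores of 0.123 and 0.0926. Of the cycling epithelial cells, 8 of 26 and 24 of 119 lay within 0.05 above the threshold on the cycling score.

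The genes lie on 9 different chromosomes (GRCm38, GENCODE spans): Tnip3 at chr6:65525313-65634040, Tnip1 at chr11:54910785-54962917, Tnfaip3 at chr10:19000910-19015657, Nfkbia at chr12:55489410-55492647, Nfkbiz at chr16:55811375-55838899, Nfkb1 at chr3:135584655-135691547, Nfkb2 at chr19:46304320-46312385, Relb at chr7:19606217-19629438 and Birc3 at chr9:7848699-7873186. All are protein-coding. Promoter sequences (RefSeq, GRCm38.p6, from 250 bases before to 50 bases after a start) were at hand for 6 of the 9 genes, with 9 starts, and not for Nfkbiz, Nfkb1 and Relb. They are shown because the family feeds back on itself through NF-kB: the 10-base κB consensus, searched on both strands, was present for 5 of the 6 (not for Birc3), whereas 9.55% of all 27025 genes in the table and 8.46% of the 32851 promoters held it. A match is a match of letters and not a measured site. The stretches below run 5′ to 3′ on the strand of the gene, all before the start, with each match and any overlapping ones in capitals.
Nfkbia, chr12:55492648-55492706, minus strand: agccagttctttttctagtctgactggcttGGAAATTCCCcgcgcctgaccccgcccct
Tnfaip3, chr10:19015411-19015565, minus strand: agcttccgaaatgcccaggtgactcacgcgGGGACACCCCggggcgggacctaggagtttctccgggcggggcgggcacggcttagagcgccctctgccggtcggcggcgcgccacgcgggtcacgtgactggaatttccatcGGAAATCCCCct
Nfkb2, chr19:46304668-46304736, plus strand: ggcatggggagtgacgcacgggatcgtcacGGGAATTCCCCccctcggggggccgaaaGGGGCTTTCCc
Tnip1, chr11:54962957-54963028, minus strand: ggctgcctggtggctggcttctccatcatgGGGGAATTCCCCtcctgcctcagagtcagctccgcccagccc
Tnip3, chr6:65590314-65590383, plus strand: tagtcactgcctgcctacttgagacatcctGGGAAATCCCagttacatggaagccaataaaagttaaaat
The Tnip3 match ended 45 bases before a start at position 65590398, which lies inside the GENCODE span of the gene. Those of Nfkbia and Tnip1 ended 20 and 47 bases before theirs.

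Tnip3, which encodes one of the TNIP adaptors that bind the Tnfaip3 protein, was a gene of few cell types. In the library labelled WT it stood at 224 CPM (187 to 267, 126 UMIs in 164 cells) in mature dendritic cells, the migrating antigen-presenting cells, and at 222 CPM (192 to 255, 193 UMIs) in transitional cells, and the intervals of these levels overlapped. Conventional dendritic cells followed at 131 CPM, with an interval that overlapped with that of cycling epithelium at 93.7 CPM (52.4 to 155), itself overlapping with that of interstitial macrophages at 80.8 CPM. AT1 and AT2 cells held 30.1 and 20.7 CPM, and fibroblasts 1.11 CPM. No Tnip3 UMI was seen in 118 mesothelial cells, where 3 counts would be 4.27 CPM.

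In the library labelled KO, transitional cells again held the most Tnip3 of the epithelial types. They stood at 252 CPM (237 to 268, 1043 UMIs), well clear of the next type, interstitial macrophages at 64.3 CPM (41.2 to 95.7). Cycling epithelium held 10.9 CPM, AT1 cells 19.8 CPM, AT2 cells 6.74 CPM, club cells 5.44 CPM and ciliated cells 3.15 CPM. There was no Tnip3 UMI in 411 endothelial cells, in which 3 counts would be 2.42 CPM, while 8018 endothelial cells of the library labelled WT held 7.39 CPM. The few immune cells of the library labelled KO left wide intervals, and 9 mature dendritic cells were too few for a place in the order.

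**Figure D1:**
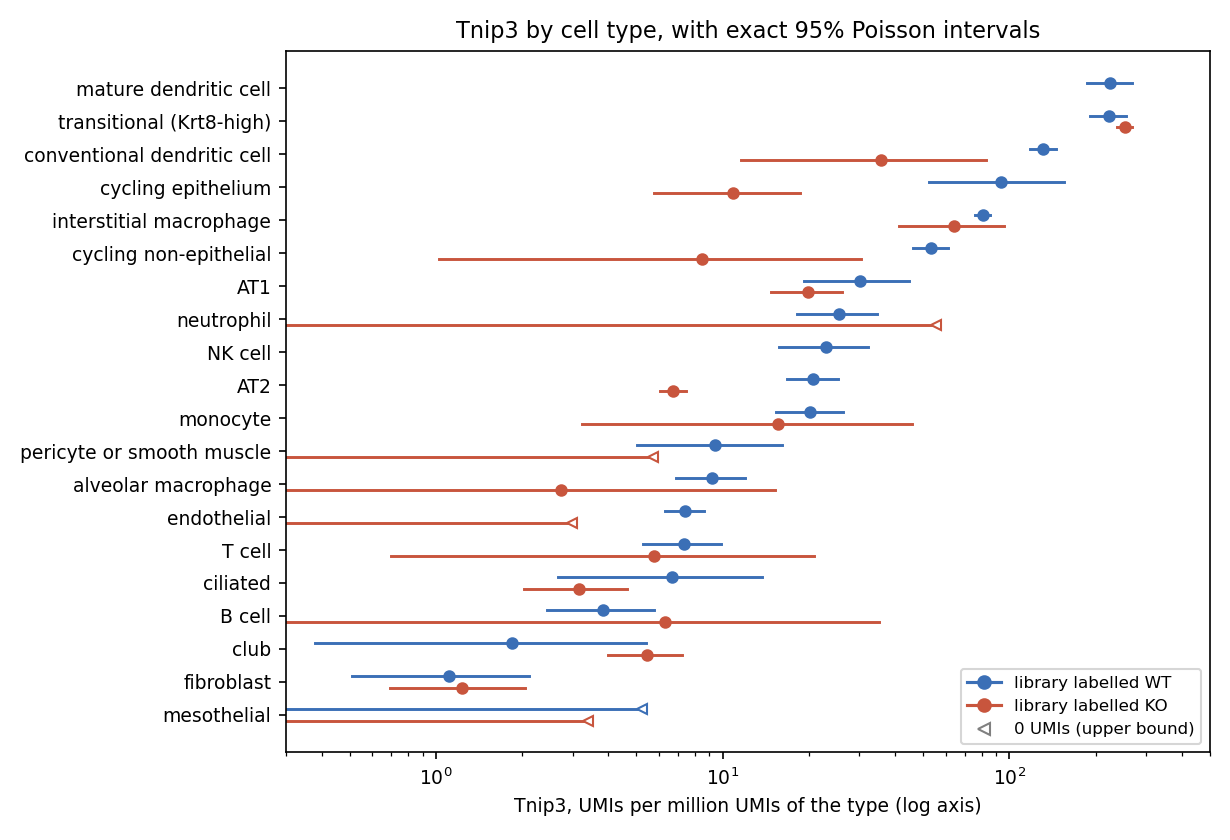
Tnip3 in the 20 cell types with at least 20 cells in the library labelled WT (values of the other library where it has 20), in CPM on a log axis, with points for the value, lines for the exact 95% Poisson interval (counting error only) and open triangles for the upper bound where no UMI was seen. Transitional cells sit at 222 CPM in the library labelled WT and at 252 CPM in that labelled KO, and cycling epithelium at 93.7 and 10.9 CPM.

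The share of cells with a Tnip3 UMI was also read in each type. In transitional cells it was 29.4% (22.8 to 36.7) in the library labelled WT and 31.5% (28.1 to 35.1) in that labelled KO, and with each cell thinned to 1000 UMIs it was expected at 13.5% and 14.7%, after leaving out 29 and 60 shallower cells. In AT1 cells it was 3.19% and 4.96%, at median depths of 821.5 and 4224.5 UMIs, and in AT2 cells 3.26% and 3.06%. Thinned AT1 cells gave 2.499% and 1.398%, after leaving out 238 and 90 shallower cells. Thinned AT2 cells gave 0.864% and 0.543%. At equal depth the expected share was lower in the library labelled KO in both types, and so was the level in AT2 cells. In AT1 cells the thinned shares came from 170 and 454 cells, and the unthinned ones had overlapping intervals. The interval of the AT1 level ratio, -1.33 to 0.16 on the log2 scale, included 0. Thinned shares are given without intervals. Fibroblasts, with Tnip3 at 1.11 and 1.24 CPM, gave 0.367% and 0.307% at median depths of 3198 and 4922 UMIs. Transitional cells had median depths of 3833 and 5164 UMIs. The share in cycling epithelium was 15.4% (4.36 to 34.9) and 5.88% (2.40 to 11.7), intervals that overlapped.

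In cycling epithelium, the contrast the set was chosen by, Tnip3 had 15 UMIs in 26 cells of the library labelled WT and 13 UMIs in 119 cells of that labelled KO, which gave -3.11 (-4.30 to -1.94) as the log2 of the level in the library labelled KO over that in the one labelled WT, called the log2 ratio from here on. The 15 UMIs lay in 4 cells, and 11 of them in 1 cell. Without the cell with most Tnip3 in each library the counts were 4 and 7, at 27.2 and 5.94 CPM, and the log2 ratio was -2.20 with an interval from -4.17 to 0.02. With 3.30 UMIs expected in the smaller library at the pooled level, Tnip3 did not pass the minimum of 5 that a gene had to reach to be counted. The lower level was not particular to this type. Cycling cells of other lineages, 520 and 29 cells, held 209 and 2 Tnip3 UMIs, at 53.2 and 8.44 CPM. Their log2 ratio was -2.65 (-5.71 to -0.78). Conventional dendritic cells, with 366 and 5 UMIs, gave -1.88 (-3.51 to -0.64), and interstitial macrophages gave -0.33 (-0.98 to 0.25).

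Most Tnip3 UMIs of the cycling epithelium lay in cells with transitional markers, although 4 of the 7 cells with a Tnip3 UMI in the library labelled KO scored below 0.2. The cell with 11 UMIs had a transitional score of 0.375, a second-best score of 0.145 (AT1), no Sftpc UMI and 33 Krt8 UMIs among 13240. The 3 cycling cells of the library labelled WT with a transitional score of 0.2 or more held 14 of the 15 UMIs, and in that labelled KO the 14 such cells held 8 of the 13. These cells stood at 569.9 CPM (312 to 956) and 49.99 CPM (21.6 to 98.5). Among cycling cells with a lower transitional score, Tnip3 gave 1 UMI in 23 cells and 5 UMIs in 105 cells, or 7.38 and 4.82 CPM, with intervals that overlapped. The other 8 genes were not gathered in the 3 cells of the library labelled WT. Nfkbia (18 UMIs), Nfkbiz (8), Tnfaip3 (6) and Birc3 (12) had all of their UMIs in the 23 cells with lower transitional scores, and so had Relb, with 2. The 3 cells held 24567 UMIs in all, so that the interval of a gene with none ran from 0 to 150 CPM. In the 14 cells of the library labelled KO, Nfkbia stood at 125 CPM (76.3 to 193), against 47.3 CPM (35.0 to 62.5) in the other 105. The Nfkbia interval of the 14 cells overlapped that of the 3. Nfkb2 stood at 43.7 against 11.6 CPM in the library labelled KO, with intervals that overlapped. In the library labelled WT, the cycling cell with 2 Tnip3 UMIs (transitional score 0.330) also carried an immune score of 0.424 and 2 Ptprc UMIs. The cycling cell with 2 Tnip3 UMIs in the library labelled KO had an immune score of 0 and no Ptprc UMI. Leaving out cells with an immune or endothelial marker UMI left 4 and 78 cycling cells, with 1 and 5 Tnip3 UMIs, too few to compare.

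**Figure D2:**
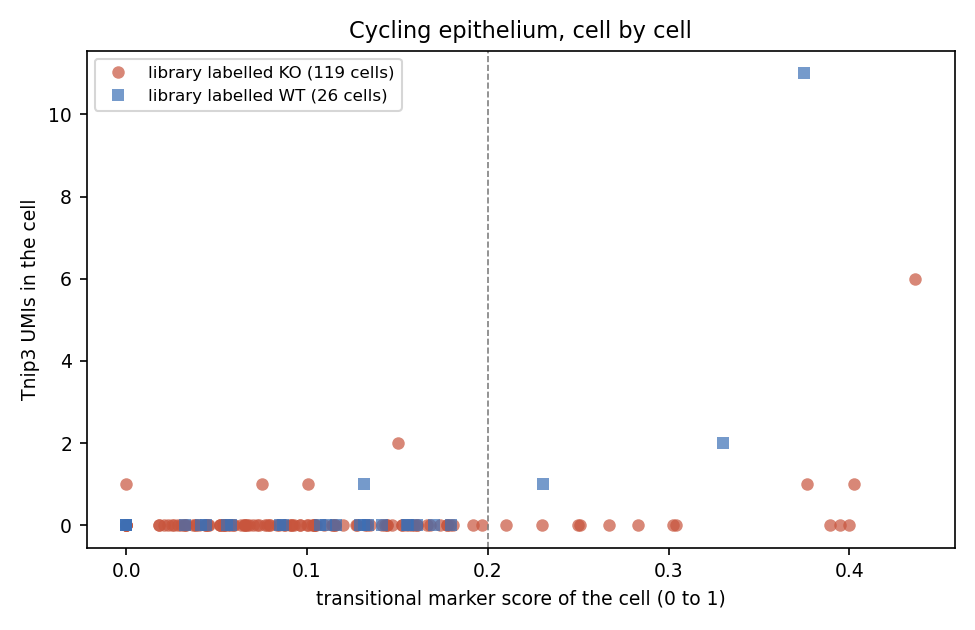
Tnip3 UMIs in each cycling epithelial cell against the transitional marker score of the cell (0 to 1), as blue squares for the 26 cells of the library labelled WT and red circles for the 119 cells of that labelled KO. The dashed line is a score of 0.2; one cell with 11 UMIs holds most of the 15 UMIs of the library labelled WT.

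In transitional cells Tnip3 was not lower in the library labelled KO. It had 193 UMIs (222 CPM) in 177 cells of the library labelled WT and 1043 UMIs (252 CPM) in 708 cells of that labelled KO, a log2 ratio of 0.19 with an interval from -0.04 to 0.42. The UMIs were spread over 52 and 223 cells, the highest cells holding 14 and 26, and 14 and 77 cells held 5 or more. Without the highest cell of each library the log2 ratio was 0.23 (0.00 to 0.47). A comparison added after the data were seen took only cells with no UMI of 8 immune and 9 endothelial markers. It left 55 and 579 cells with 20 and 803 Tnip3 UMIs, at 110.2 and 247 CPM. The log2 ratio was 1.17 (0.53 to 1.89). Transitional cells with a Tnip3 UMI were deeper than those without, and the part of depth in this filter was not tested.

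Along the transitional score, Tnip3 climbed in both libraries. Alveolar cells outside the cycle (AT2, AT1 and transitional) were binned by that score, which uses none of the 9 genes. In the library labelled WT the bins below 0.1, from 0.1 to 0.2, 0.2 to 0.3, 0.3 to 0.4 and from 0.4 up held 19.9, 12.4, 95.7, 114 and 279 CPM. Those of the library labelled KO held 2.93, 9.84, 46.0, 85.8 and 309 CPM. The top bins, with 83 and 398 cells, overlapped in their intervals (238 to 326 and 289 to 330 CPM), and so did the bins from 0.1 to 0.2 and from 0.3 to 0.4. The lowest bins did not (15.8 to 24.9 against 2.43 to 3.50 CPM), nor did those from 0.2 to 0.3 (71.2 to 126 against 39.2 to 53.6 CPM). In the lowest bin of the library labelled WT, a single cell held 32 of the 79 Tnip3 UMIs and another cell held 10. Their immune scores were 0.391 and 0.282, and the second-best type of each was conventional dendritic cell.

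Tnip1, Nfkb2 and Relb climbed along the score as well. From the lowest to the highest bin, Tnip1 went from 19.2 to 74.5 CPM in the library labelled WT and from 14.8 to 54.5 CPM in that labelled KO. Nfkb2 went from 10.4 to 74.5 CPM and from 10.2 to 64.7 CPM, and Relb from 12.6 to 43.3 CPM and from 8.44 to 41.5 CPM. Nfkbiz ran the other way, from 103 to 43.3 CPM and from 71.6 to 35.1 CPM. Birc3 fell too, from 75.8 to 52.0 CPM and from 62.3 to 41.2 CPM, and so did Nfkb1, from 149 to 113 CPM and from 88.1 to 64.0 CPM. For both genes the intervals met in the library labelled WT. Tnfaip3 went from 31.6 to 26.0 CPM in the library labelled WT, with intervals that met, and rose from 7.41 to 18.4 CPM in that labelled KO. The libraries also parted for Nfkbia: its highest bin was the middle one in the library labelled WT (366 CPM, against 182 CPM from 0.4 up) and the top one in that labelled KO (305 CPM, against 176 CPM in the middle bin).

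**Figure D3:**
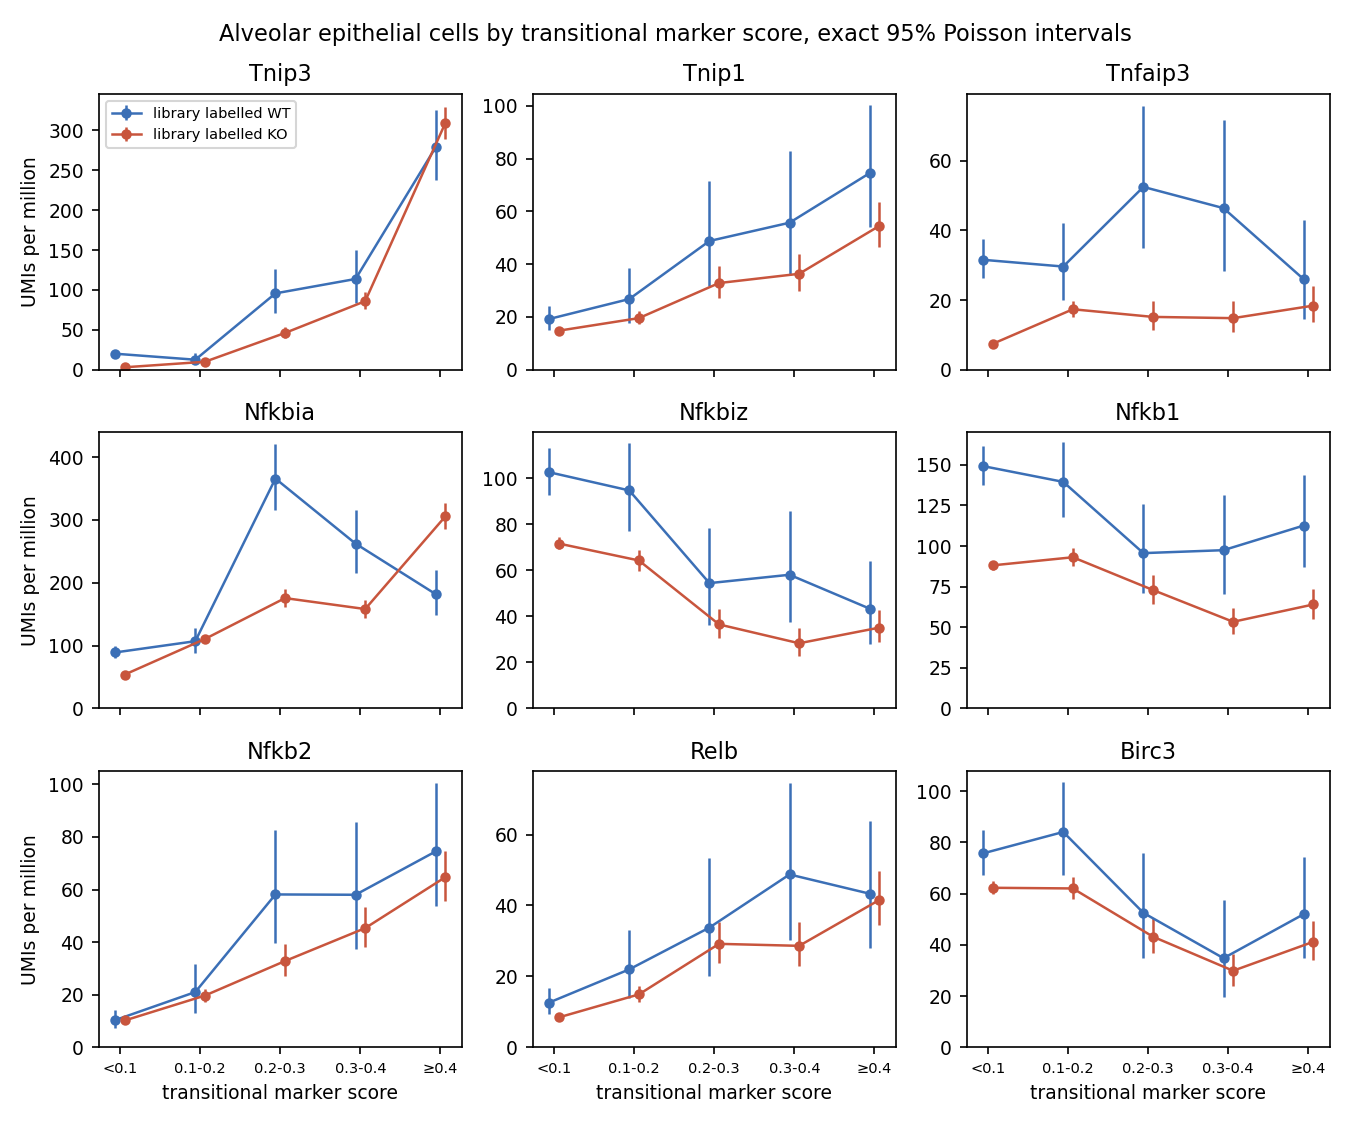
Level of each of the 9 genes, in CPM, in alveolar epithelial cells binned by the transitional marker score. The cells were outside the cycle and scored higher as AT2, AT1 or transitional than as airway types. Blue is the library labelled WT and red that labelled KO, with exact 95% Poisson intervals. Tnip3 rises from 19.9 to 279 CPM and from 2.93 to 309 CPM, while Nfkbiz falls from 103 to 43.3 CPM and from 71.6 to 35.1 CPM. A single cell with an immune score of 0.391 holds 32 of the 79 Tnip3 UMIs in the lowest bin of the library labelled WT.

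In AT2 cells Tnip3 was low in both libraries and lower in that labelled KO, with 98 UMIs (20.7 CPM) in 890 cells and 369 UMIs (6.74 CPM) in 7506 cells, a log2 ratio of -1.62 (-1.95 to -1.29). A single cell held 32 of the 98 UMIs. Its immune score was 0.391 and its second-best type score that of conventional dendritic cells (0.149). Without the highest cell of each library the log2 ratio was -1.12 (-1.51 to -0.72). Among AT2 cells with no immune or endothelial marker UMI, 265 and 5780 cells, Tnip3 stood at 6.21 and 6.33 CPM and the log2 ratio was 0.03 (-1.04 to 1.36). AT2 cells with an activated score, on acute-phase genes such as Lcn2, of 0.3 or more held 22.1 and 3.28 CPM, against 20.2 and 7.96 CPM below it. In the library labelled WT these were 28 UMIs against 70, and the cell with 32 UMIs was among the 70. AT1 cells gave a log2 ratio of -0.61 with an interval from -1.33 to 0.16. In club cells 3 and 47 UMIs gave 1.56 (-0.08 to 3.89), and in ciliated cells 7 and 25 UMIs gave -1.08 (-2.33 to 0.38).

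Immune and endothelial RNA was lower in the library labelled KO in all 6 of these epithelial types. Over AT2, AT1, transitional, club, ciliated and cycling epithelial cells, all 8 immune markers were seen in each type of each library, and they summed to between 506 and 1287 CPM in the library labelled WT and between 28.8 and 159 CPM in that labelled KO. Immune cells themselves summed to 7333 and 7436 CPM. The 9 endothelial markers summed to between 358 and 642 CPM and between 21.5 and 72.6 CPM, with Kdr and Tie1 at 0 in the 26 cycling cells of the library labelled WT. The 8 fibroblast markers gave 87.4 to 252 CPM and 134 to 322 CPM; of them only Col1a2 and Lum were at 0 in any of these types. Among AT2 cells, 625 of 890 and 1726 of 7506 carried at least 1 immune or endothelial marker UMI. Beyond the comparison without such cells, the part of this RNA in the ratios was not tested.

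The partners of Tnip3 were next. Tnip1, the widely expressed adaptor of the same family, was highest in transitional cells (79.3 CPM) and T cells (65.9 CPM) in the library labelled WT and in T cells (66.4 CPM) and transitional cells (50.1 CPM) in that labelled KO, with neighbours in each order that overlapped. Its log2 ratio was -0.66 (-1.06 to -0.25) in transitional cells, from 69 and 207 UMIs, and -0.33 (-0.63 to -0.01) in AT2 cells, from 98 and 903 UMIs. Cycling epithelium held 4 and 16 UMIs of it, and the interval ran from -2.53 to 1.14. Tnfaip3, the ubiquitin-editing enzyme itself, was a gene of leukocytes, with 431 CPM in neutrophils and 262 CPM in T cells of the library labelled WT and 661 CPM in neutrophils of that labelled KO.

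Tnfaip3 was the other member with a large ratio in AT2 cells: 154 UMIs (32.6 CPM) against 533 UMIs (9.73 CPM), a log2 ratio of -1.74 (-2.005 to -1.48). Among AT2 cells with no immune or endothelial marker UMI it stood at 10.6 and 8.57 CPM, and the ratio was -0.31 (-1.14 to 0.65). In transitional cells it had 32 and 79 UMIs (36.8 and 19.1 CPM) and a log2 ratio of -0.94 (-1.55 to -0.30). In cycling epithelium 6 and 10 UMIs gave -2.16 (-3.77 to -0.42), again under the minimum of expected UMIs.

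The IkB proteins differed from each other. Nfkbia, the classical inhibitor that is resynthesised within NF-kB cycles, was by far highest in neutrophils (869 and 2434 CPM) and followed in transitional cells, after mature dendritic cells in the library labelled WT and mesothelial cells in that labelled KO, with 313 CPM (272 UMIs) in the library labelled WT and 264 CPM (1091 UMIs) in that labelled KO. AT2 cells held 99.6 and 71.8 CPM. Its log2 ratio was -0.24 (-0.44 to -0.05) in transitional cells, -0.47 (-0.61 to -0.33) in AT2 cells and -0.96 (-1.73 to -0.13) in cycling epithelium, where 18 and 69 UMIs were counted. Single cells of the library labelled WT held 9 of the 18 cycling UMIs and 30 of the 272 transitional ones. In that labelled KO the highest cells held 12 of 69 and 29 of 1091. Without cells that carried immune or endothelial UMIs, AT2 cells of both libraries held nearly the same level, 66.5 and 67.7 CPM (log2 ratio 0.03, interval -0.31 to 0.38). In transitional cells without such cells the log2 ratio was -0.43 (-0.80 to -0.04), from 64 and 848 UMIs.

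Nfkbiz, a nuclear IkB protein that works as a co-activator of secondary inflammatory genes, was highest in neutrophils (1254 and 1457 CPM). It followed in monocytes of the library labelled WT (406 CPM), in mesothelial cells (270.4 and 408 CPM) and in fibroblasts (254 and 254 CPM). In transitional cells it had 64 UMIs (73.5 CPM) and 147 UMIs (35.6 CPM), a log2 ratio of -1.05 (-1.48 to -0.60), the lowest value of the 9 genes in that type, with an interval that overlapped those of Tnfaip3 and Nfkb1. Without marker-carrying cells the ratio was -1.45 (-2.20 to -0.62), from 17 and 111 UMIs. In AT2 cells it had 102 and 70.0 CPM (log2 ratio -0.54, interval -0.68 to -0.40). Without marker-carrying cells the AT2 ratio was -0.42 (-0.71 to -0.12). In AT1 cells it had 43.9 and 9.70 CPM (-2.18, interval -2.98 to -1.40). The AT1 value rested on 35 and 25 UMIs, with 7 of the 35 in 1 cell. Immune markers summed to 1104 and 52.8 CPM in AT1 cells, and the part of such RNA in this ratio was not tested. In cycling epithelium it was the one member that passed the minimum with a ratio above 0, 8 and 84 UMIs giving 0.49 with an interval from -0.55 to 1.75.

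**Figure D4:**
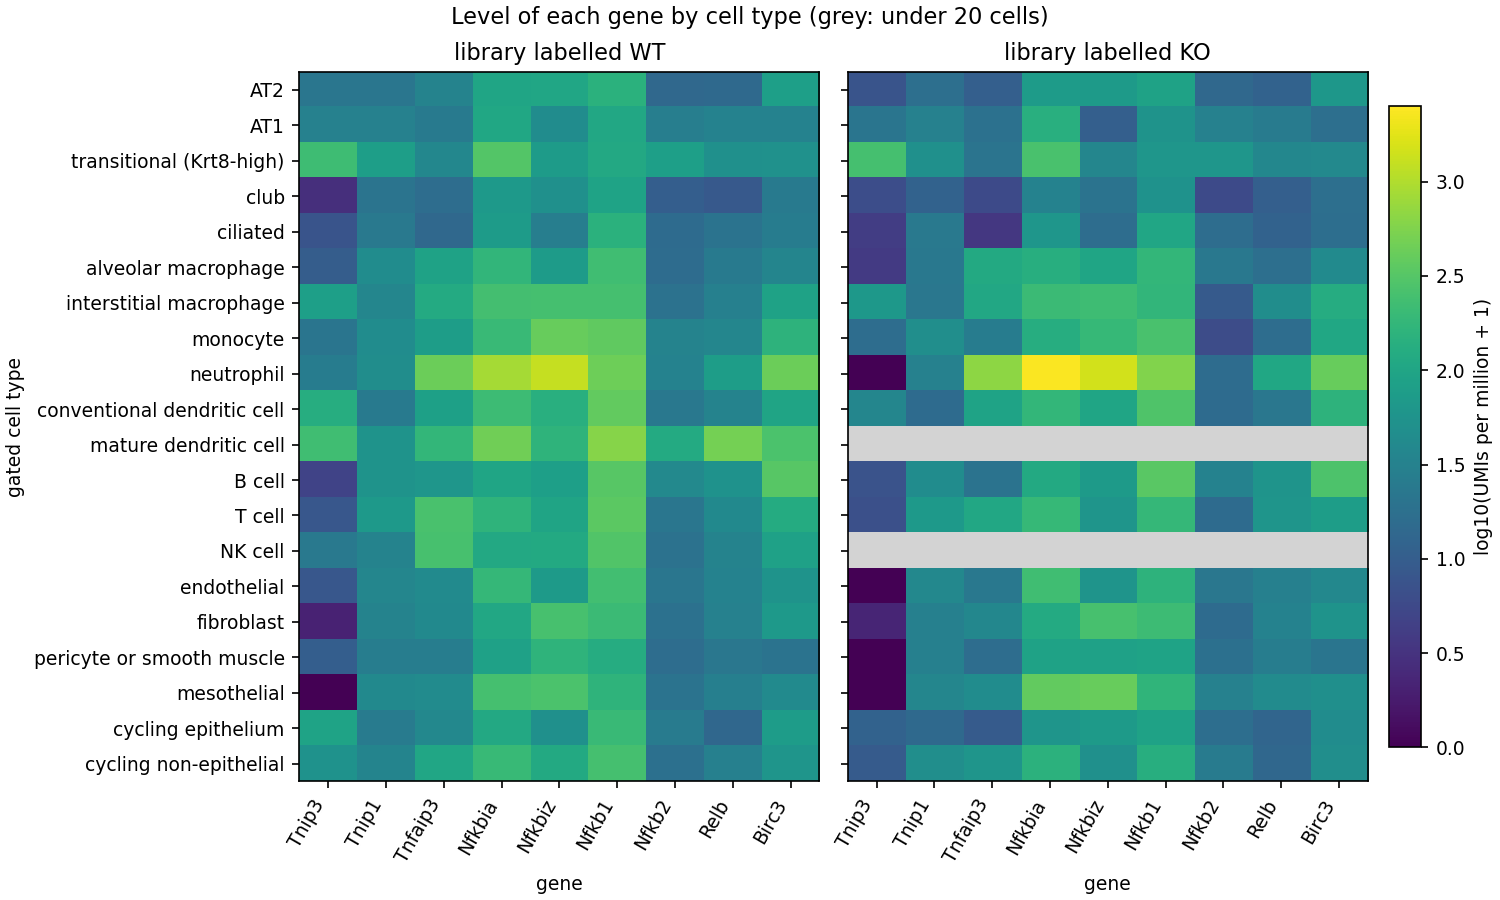
Level of each of the 9 genes in the types with at least 20 cells in the library labelled WT, as the base-10 logarithm of CPM plus 1, for the library labelled WT (left) and that labelled KO (right), where types under 20 cells are grey. Neutrophils are brightest for Nfkbia, Nfkbiz and Tnfaip3, mature dendritic cells of the library labelled WT for Relb (493 CPM), and Tnip3 is bright in transitional cells of both.

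The subunits followed the cell lineages. Nfkb1, the precursor of a DNA-binding subunit, was broad, from 609 CPM in mature dendritic cells and 446 CPM in neutrophils of the library labelled WT down to 91.6 CPM in club cells. It had a lower level in the library labelled KO in all 3 epithelial comparisons. In AT2 cells 146 and 89.0 CPM gave a log2 ratio of -0.71 (-0.83 to -0.60), in transitional cells 111 and 60.2 CPM gave -0.89 (-1.23 to -0.53), and in cycling epithelium 32 and 107 UMIs gave -1.16 (-1.74 to -0.54). Without marker-carrying cells the ratios in the first 2 were -0.34 (-0.60 to -0.08) and -0.53 (-1.27 to 0.30). Outside the epithelium Nfkb1 was also lower in T cells (-0.93, interval -1.31 to -0.57), cycling cells of other lineages (-0.89, -1.45 to -0.38) and endothelial cells (-0.55, -0.76 to -0.34). It was not lower in fibroblasts (0.02), B cells (0.05), mesothelial cells (0.07) or neutrophils (0.36).

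Nfkb2 and Relb form the dimer of the non-canonical pathway, which follows lymphotoxin and CD40 signals. Mature dendritic cells of the library labelled WT held 493 CPM of Relb, clear of the next type, neutrophils at 76.8 CPM. They also held 117 CPM of Nfkb2, with an interval that overlapped that of the next type, transitional cells. In transitional cells Nfkb2 stood at 82.7 CPM (72 UMIs) and 60.7 CPM (251 UMIs), first in the order of the library labelled KO with an interval that overlapped that of B cells. The log2 ratio there was -0.45 (-0.83 to -0.05). AT2 cells held 12.9 and 13.2 CPM of Nfkb2, a log2 ratio of 0.03 (-0.35 to 0.43). Relb gave -0.45 (-0.94 to 0.08) in transitional cells, from 43 and 150 UMIs, and -0.36 (-0.73 to 0.04) in AT2 cells. In cycling epithelium, 4 and 19 UMIs of Nfkb2 and 2 and 14 UMIs of Relb left intervals that spanned more than 3 log2 units.

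Birc3, a ubiquitin ligase of the TNF receptor complex that also restrains the non-canonical kinase, was highest in neutrophils (426 and 406 CPM) and B cells (325 and 278 CPM). AT2 cells held more of it than transitional cells: 81.4 and 62.8 CPM against 51.7 and 38.9 CPM. Its log2 ratio was -0.38 (-0.53 to -0.22) in AT2 cells, -0.41 (-0.89 to 0.10) in transitional cells and -0.79 (-1.71 to 0.26) in cycling epithelium. Without marker-carrying cells, AT2 cells had 61.2 and 62.2 CPM.

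**Figure D5:**
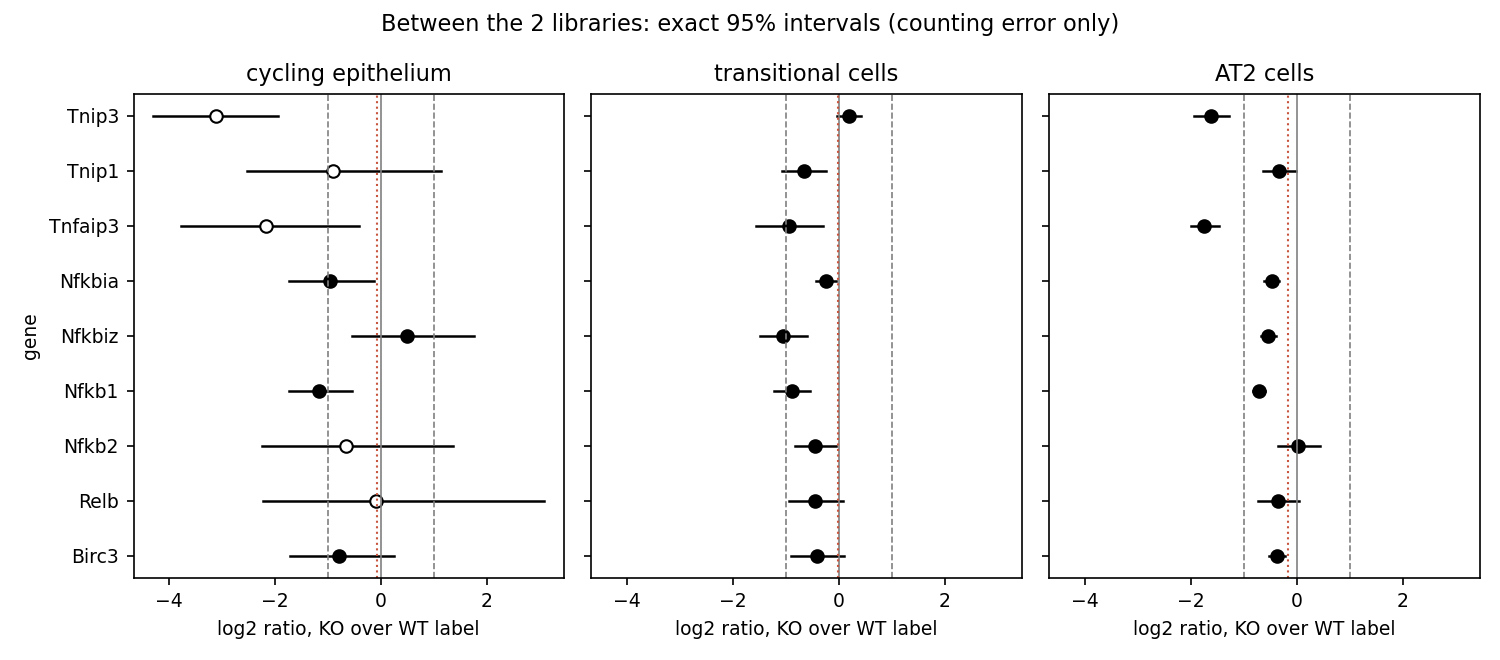
Log2 ratio of the library labelled KO over that labelled WT for the 9 genes in cycling epithelium, transitional cells and AT2 cells, with exact 95% intervals that cover counting error only. Filled points passed the minimum of 5 expected UMIs, dashed lines mark 1 log2 unit and the dotted red line is the median of all genes that passed; Tnip3 lies at -3.11, 0.19 and -1.62.

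Counted against all genes, the set did not move as a block by 2-fold. A gene was counted as lower or higher when its ratio reached 1 log2 unit and at least 5 UMIs were expected in each library. In transitional cells all 9 members passed the minimum; 1 (Nfkbiz) was lower and 0 were higher, where 3.55% of the 10608 genes that passed were lower and 5.26% higher. The members' median log2 ratio was -0.45 and that of all genes -0.02, with 8 of 9 members below 0 and Tnip3 above it. In AT2 cells all 9 passed, 2 (Tnip3 and Tnfaip3) were lower and 0 higher, against 8.07% and 2.58% of 13116 genes, and the medians were -0.47 for the members and -0.15 for all genes.

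In cycling epithelium 4 of the 9 passed (Nfkbia, Nfkbiz, Nfkb1 and Birc3). Of these, 1 (Nfkb1) was lower and 0 higher, against 5.63% and 7.95% of 4916 genes, and nothing is read from this count since the contrast chose the set. Ratios here are scaled by total UMIs. Scaling by TMM factors instead moved every ratio up by 0.28 in cycling epithelium, 0.11 in transitional cells and 0.21 in AT2 cells, which turned Relb in cycling epithelium from -0.09 to 0.19. Under that scaling the lower genes made up 15.7% of all genes past 1 log2 unit in cycling epithelium in place of 41.5%, 30.2% in place of 40.3% in transitional cells and 64.7% in place of 75.8% in AT2 cells. Neither Nfkb1 in cycling epithelium nor Nfkbiz in transitional cells then reached 1 log2 unit. In the remaining 15 types with 20 cells in both libraries, the number of members past the minimum and lower by 1 log2 unit ran from 0 to 4, the most in monocytes (4 of 8), where 13.8% of all genes were lower. The library labelled KO held only 49 monocytes.

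Of 91 listed ligands, receptors, adaptors and kinases, other Rel and IkB genes, other inhibitors and other targets, 73 passed the minimum in transitional cells; 6 were lower and 4 higher, with a median log2 ratio of -0.18, beside 3.55% and 5.26% of all genes and their median of -0.02. The lower ones were mostly chemokine and cytokine targets: Cxcl2 (91.9 and 10.4 CPM, log2 ratio -3.14), Cxcl3 (-2.45), the survival gene Bcl2a1b (-1.83), Cxcl5 (-1.73) and Csf2 (-1.27). Those higher were Lcn2 (29.9 and 203 CPM, 2.77), which also defines activated AT2 cells, Cxcl1 (2.02), the IkB gene Nfkbie (1.58) and the adaptor Tab1 (1.45). Immune markers summed to 506 and 28.8 CPM in transitional cells, and 122 and 129 of these cells carried an immune or endothelial marker UMI. The part of such RNA in the ratios of these listed genes was not tested. By role, the lower genes were 5 of 24 other targets and 1 of 7 receptors, and none of 21 adaptors and kinases, 5 other Rel and IkB genes or 15 other inhibitors.

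In AT2 cells 83 of the 91 passed, 19 were lower and 2 higher, with a median of -0.39, beside 8.07% and 2.58% of all genes and their median of -0.15. The 5 furthest down were Ltb (19.0 and 0.529 CPM, -5.17), Cxcl10 (-4.13), Tlr2 (-3.59), Il1b (63.7 and 5.99 CPM, -3.41) and Nfkbid (-3.18), and these include cytokine, receptor and IkB genes that leukocytes express. Those higher were the chemokine genes Ccl20, with 0 and 112 UMIs, and Cxcl5, with 4 and 128 UMIs and a log2 ratio of 1.47. In cycling epithelium 29 of the 91 passed, with 2 lower (Cebpb at -1.55 and Tbk1 at -1.14) and 2 higher (Irak1 at 1.24 and Cebpd at 1.02), beside 5.63% and 7.95% of all genes. The median was -0.31, against -0.07 for all genes. Of the named genes only Cebpb had an interval clear of 0 (-2.06 to -1.02). Those of Tbk1 (-2.19 to 0.05), Irak1 (-0.38 to 3.56) and Cebpd (-0.07 to 2.37) included 0. In the library labelled WT these rested on 10, 3 and 7 UMIs. Of 16 early genes that also rise when tissue is dissociated, 1 of 16 was lower in transitional cells and none higher, none of 16 was lower or higher in AT2 cells, and 2 of 15 were lower and 1 higher in cycling epithelium. All 16 were nevertheless below 0 in AT2 cells, with a median of -0.50, near that of the 9 members (-0.47), and the part of dissociation in the members' ratios was not tested. Their medians were 0.10 in transitional cells and -0.36 in cycling epithelium.

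Genes most like Tnip3 were sought within each library over its own 20 types with at least 20 cells, by the Pearson correlation of log2(CPM + 10), as a description over types that share a library. The types were not the same: 18 were common, mature dendritic and NK cells entered only in the library labelled WT, and goblet and basal cells only in that labelled KO, so the orders are not compared. In the library labelled WT the closest of 8783 genes included Gfer (r = 0.86), Cxcl16 (0.83), Arpp19 (0.79) and Nedd8 (0.78). In that labelled KO the 5 closest were Crct1 (0.85), Atg9b (0.82), Psmd8 (0.79), Esd (0.73) and Resp18 (0.73), of 8933 genes, and all 5 peaked in transitional cells. The closest member of the set was Nfkb2, with r = 0.65 in the library labelled WT and 0.35 in that labelled KO, at places 79 and 846 in the order, while Nfkbiz gave 0.02 and -0.22.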

How the data were processed

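Lung cells of 2 samples (Pclaf WT and Pclaf KO, 1 library each) were profiled by droplet 3′ RNA sequencing. The authors deposited UMI counts per gene and barcode, which per the labels come from Cell Ranger 3.1.0 with STAR on GRCm38 (mm10), whereas the matrix header names Cell Ranger 5.0.0. Both tables hold 31053 genes and no column was left unmapped. Groups were taken from the genotype labels. The members and lists were chosen with earlier results of these data known.

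Cells with over 200 and under 5000 genes and under 20% mitochondrial UMIs were kept, the limits of the methods with the number of RNAs read as genes, and no doublets were removed beyond the gates. Scrublet (scanpy 1.11.5), tried as an alternative, called 7.76% and 2.70% of cells. A panel score is the mean over markers of log(1 + UMIs per 10000), each scaled by the mean of its 100 highest cells and held to at most 1. A cell took its best type at a score of 0.2 or more and 0.05 above the next. Cells with a cycling score of 0.2 or more were set apart first, as cycling epithelium where an epithelial score led by the same margin. UMIs were summed per type and library, and ratios of 2 sums were given exact conditional 95% intervals (scipy 1.17.1, Python 3.11.15). With 1 library a group there is no test. A gene counted as lower or higher at 1 log2 unit, with at least 5 UMIs expected in each library at the pooled level. A count of 0 is given with the level of 3 counts. Interval and calling code was tested on simulated data.

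All 9 members are named. Further named genes are those of the lists past 1 log2 unit, at most 5 in each direction per comparison, and the 5 most like Tnip3 per library, among genes reaching 50 CPM in a type, of which 1 is not reported here. Alternatives varied the filters, gates (Leiden clusters included), denominator, scaling (TMM, edgeR 4.0.16 in R 4.3.3), weighting, depth, fold and minimum, and 1, without cells that carry immune or endothelial marker UMIs, was added after seeing the data. Kept cells held medians of 2127 and 5957 UMIs.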

Additional observations from a re-analysis of the deposited data

How the results depend on the processing

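No paired analysis was possible because each genotype has 1 library. Of 18 alternatives, 17 were planned and 1 was chosen after seeing the data. The Tnip3 ratio in transitional cells stayed above 0 in all 14 that apply to it, between 0.13 and 1.17 on the log2 scale, the highest without cells that carry an immune or endothelial marker UMI. In cycling epithelium it stayed below 0 but ran from -3.61 to -0.10. It was -0.10 with the limits of 200 and 5000 read as UMIs, -1.35 with no upper limit on genes, -1.34 with each cell weighted alike and -1.50 with cells thinned to 1000 UMIs. In AT2 cells it reversed to 0.85 with limits read as UMIs and to 0.028 without marker-carrying cells. It was -0.80 without Scrublet doublets, -1.12 in Leiden clusters, -0.82 with each cell weighted alike, -1.12 without the highest cell and -0.91 after thinning. Nfkb1 in cycling epithelium turned to 0.032 in Leiden clusters. Of 96 values of the other 8 genes in each type, 78 in cycling epithelium, 93 in transitional cells and 84 in AT2 cells lay below 0. These values are 8 genes in 12 alternatives on the same 2 libraries and are not separate observations. The medians of all genes in the main setting were also below 0, at -0.07, -0.02 and -0.15. The share of all genes below 0 was not counted, so nothing is read from these numbers.

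The number of members lower by the fold moved from 1 in cycling epithelium to 0 (limits as UMIs, Scrublet, Leiden, TMM, each cell alike, 1.5 log2 units, marker-carrying cells out), 2 (looser gates, 2 expected UMIs) or 3 (no upper limit, 0.5 log2 units). In transitional cells it moved from 1 to 0 (no upper limit, Scrublet, stricter gates, Leiden, TMM, each cell alike, 1.5 log2 units), 2 (limits as UMIs, 500 genes, looser gates) or 4 (0.5 log2 units), and the number higher moved from 0 to 1 (Tnip3) without marker-carrying cells. In AT2 cells it moved from 2 to 1 (limits as UMIs, Scrublet, each cell alike), 4 (0.5 log2 units) or 0 (marker-carrying cells out). The share of all genes that were lower ran from 1.404% to 22.9% in cycling epithelium, 1.68% to 13.8% in transitional cells and 0.968% to 18.0% in AT2 cells. The cause of these moves was not tested. With 26 cycling epithelial cells in the library labelled WT, 5 members were too sparse there to be counted.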

Other observations

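Within transitional cells, those with a Tnip3 UMI were deeper than those without (medians of 6398 and 2523 UMIs in the library labelled WT, 7165 and 4194 in that labelled KO) and had higher transitional scores (0.449 against 0.348, and 0.441 against 0.359). The keratin gene Krt8 stood at 2066 against 1607 CPM and at 2292 against 1552 CPM in them. Cldn4, a tight junction gene, stood at 588 against 483 CPM and at 773 against 518 CPM. Its intervals overlapped in the library labelled WT. Sfn, another transitional marker, stood at 1094 against 741 CPM and at 847 against 803 CPM, with intervals that overlapped in the library labelled KO. Nfkb2 was at 77.0 against 48.7 CPM and Tnfaip3 at 25.7 against 14.3 CPM in the library labelled KO, where the intervals of Nfkb2 did not overlap and those of Tnfaip3 did. In the library labelled WT Nfkb2 was at 76.8 against 88.2 CPM, with intervals that overlapped. Relb went the other way there, at 26.4 against 70.5 CPM, with intervals that did not overlap, while in the library labelled KO it stood at 39.3 against 34.0 CPM and the intervals overlapped. Nfkbia stood at 338 against 289 CPM and at 282 against 250.4 CPM, with overlapping intervals in both. The AT2 gene Sftpc was higher in the summed UMIs of cells with Tnip3 in both, at 5298 against 716 CPM and at 4727 against 3604 CPM. These sums do not describe the typical cell. The 3 cells with most Tnip3 held 0, 0 and 1 of the 2208 Sftpc UMIs in the library labelled WT. In that labelled KO they held 8, 1257 and 4 of 8293. The part of depth in these values was not tested.

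Outside the epithelium, neutrophils of both libraries held the highest Nfkbia, Nfkbiz and Tnfaip3 of any type, from 749 cells in the library labelled WT and 36 in that labelled KO. Nfkbia was 2434 CPM in the latter against 869 CPM. Monocytes had the largest number of members lower by 1 log2 unit, 4 of the 8 that passed the minimum, from 903 and 49 cells, where 13.8% of all genes were lower. In the library labelled KO these rested on 1 UMI of Nfkb2, 3 of Relb, 5 of Tnfaip3 and 36 of Nfkbiz. The Relb interval ran from -3.48 to 0.41 and that of Nfkb2 from -7.93 to -0.10. Fibroblasts, with 2180 and 2283 cells the best matched type in number, had 0 of 9 members past 1 log2 unit, where 8.75% of all genes were lower and 2.98% higher, and a median log2 ratio of 0.00 against -0.08 for all genes. Their members ran from -0.30 to 0.15.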
